A study of Mus musculus with 18 samples.

Results

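Granulocyte-monocyte progenitors (GMPs) sorted from the marrow of control mice were set against a Hoxb8 progenitor line that had differentiated in culture for 3 days. The comparison used 8 of the 18 mouse libraries of the series, all made by SmartSeq2 low-input RNA sequencing. Raptor fl/fl GMPs gave 3 libraries and Tsc2 fl/fl GMPs gave 3, where fl/fl means that both copies of the gene carry sites for Cre recombination. The labels of these mice name no Cre, strain, age or sex and do not say whether animals were pooled. The genotype label of every Tsc2 sample reads Raptor, so the groups follow the titles. Each GMP sample held 10000 cells that lacked CD127, CD135 and Sca-1, carried FcγRII/III and c-kit and showed little Ly6C or CD34, and these were sorted straight into lysis buffer. The other side was DR-ER-Hoxb8 cells, an immortalised myeloid progenitor line, with 2 libraries. This line grew with stem cell factor (SCF) and estradiol, spent the 3 days in SCF without estradiol with DMSO as the vehicle, and was pelleted and lysed. A second comparison set knockout GMPs (Raptor KO and Tsc2 KO, 3 libraries each) against inhibitor-treated Hoxb8 cells. These Hoxb8 cells were treated for the same 3 days with 100 nM of rapamycin or 10 nM of SL0101-01, in 2 libraries each. The rule for keeping genes used none of these 10 libraries. Rapamycin inhibits the kinase complex mTORC1 and SL0101 inhibits the RSK kinases, while Raptor is a subunit of mTORC1 and Tsc2 restrains it. A gene was kept where Raptor fl/fl and Tsc2 fl/fl GMPs both differed from the DMSO cells in the same direction, each at an adjusted p under 0.05 from limma. The log2 fold change (log2FC) printed for a gene is the mean of both differences, on log2(signal units + 1), with floxed GMPs over Hoxb8 DMSO cells, and the adjusted p is the larger of the pair (Benjamini-Hochberg, all tested genes); SE is the standard error of that mean. A signal unit is the authors' fragment count divided by a size factor of the library.

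GMPs stand between multipotent progenitors and the neutrophil and monocyte lineages. A cell that takes the neutrophil path fills its granules in a fixed order: primary (azurophil) granules with myeloperoxidase and serine proteases in the promyelocyte, secondary (specific) granules with lactoferrin and its companions in the myelocyte, and tertiary (gelatinase) granules later still, followed by the receptors and the oxidase of the mature cell. A Hoxb8 protein joined to the oestrogen receptor holds progenitors immature while estradiol is present, and withdrawal of estradiol lets them differentiate. The comparison therefore sets a freshly isolated progenitor against a cultured cell on its way out of that state.

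Of 22787 genes in the table, 13313 reached 1 unit in at least 2 of the 8 libraries and were tested, and 5446 were kept. Of those tested, 3120 genes (23.4%) were higher in both floxed GMP groups and 2326 (17.5%) were lower. A difference of at least 4-fold was met by 1382 genes (10.4%) on the higher side and 852 (6.4%) on the lower side. Among the kept genes, 502 of the higher ones were listed at 0 in both Hoxb8 libraries and 47 of the lower ones at 0 in all 6 GMP libraries. The 6 GMP and the 2 Hoxb8 libraries did not overlap in 7215 of the 13313 tested genes (54.2%); among kept genes, 5408 did not overlap, a count that the test on the same libraries largely fixes. Both contrasts share the 2 DMSO libraries. The median log2 fold change over all tested genes was 0.16. The gene lists below were chosen with earlier results of these data known, so their shares describe the lists and are not independent tests. Primary origin, sorting, culture and differentiation all go with the cell kind and cannot be told apart. Xist and the Y-linked gene Kdm5d also followed the cell kind, except in Tsc2 fl/fl replicate 2. Of 5 sex-linked genes tested, Kdm5d and Uty were kept as lower. The part that sex had in the differences was not tested. In libraries from mixed cells, fewer cells of a type and less RNA per cell cannot be told apart either. The labels do not say that replicates were separate animals or cultures, so p-values measure only the spread between these libraries. At the edge of the rule, the 50 kept genes with the largest adjusted p had a median absolute log2 fold change of 0.95, and the 50 genes that missed by least had 1.18.

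**Figure D1:**
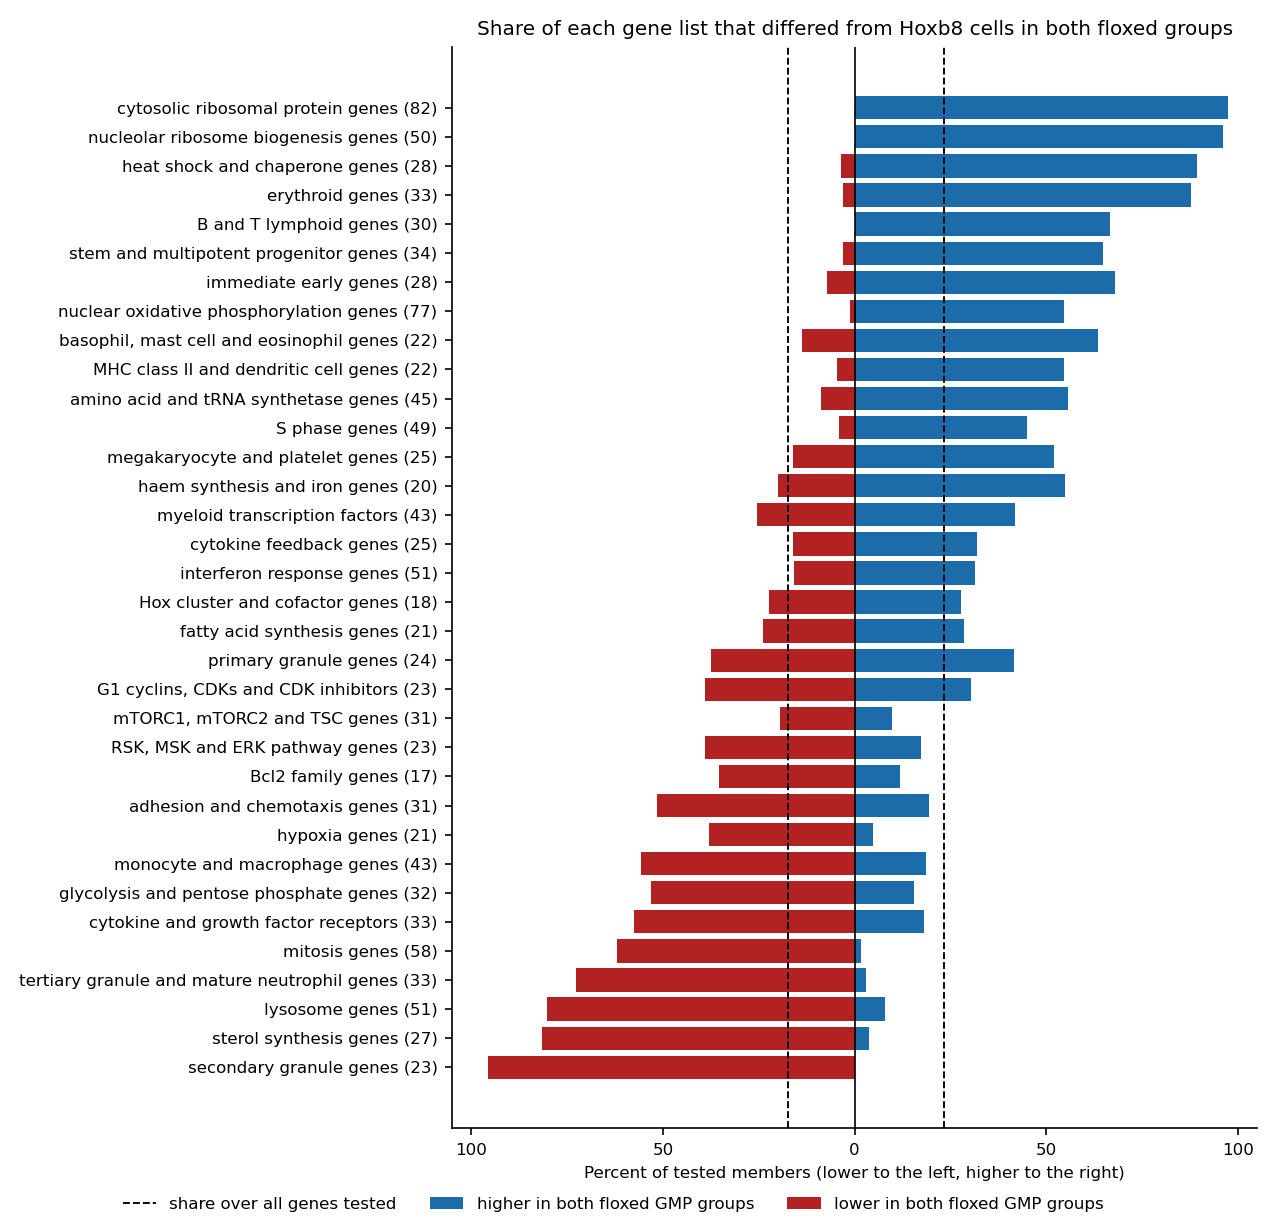
Share of the tested members of each gene list (number tested in brackets, lists with at least 15) that were higher (blue, to the right) or lower (red, to the left) in both floxed GMP groups than in Hoxb8 DMSO cells. The dashed lines mark 23.4% and 17.5%, the shares over all 13313 genes. Ribosomal protein, ribosome biogenesis, chaperone and erythroid genes lie at one end, and secondary granule, sterol, lysosome and mature neutrophil genes at the other.

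The libraries held 2.48 to 3.38 M fragments in floxed GMPs and 3.08 and 3.10 M in Hoxb8 cells, and 11866 to 12305 genes reached 1 unit in floxed GMPs and 11256 and 11198 in Hoxb8 cells. Mpo took the largest share of the signal in each floxed library (1.09 to 2.24%), and S100a8 (1.36%) and S100a9 (1.79%) did so in the Hoxb8 libraries. Replicates correlated at 0.94 to 0.96 on the log2 scale in GMPs and at 0.98 in the line. Tsc2 fl/fl replicate 2 stood apart. Its summed primary granule genes came to 47031 units, against 89861 to 102484 in the other 5 floxed libraries, and its erythroid genes to 17888 units, against 5611 to 9459.7. It was also the 1 floxed library with next to no Xist (1.69 units, against 2529 to 4876 in the others) and with Y-linked Kdm5d (38.1 units); both Hoxb8 libraries likewise held Kdm5d (56.1 and 48.1 units) and next to no Xist (0 and 1.66 units). Without that library 3083 genes were higher and 2355 lower.

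The labels of the cell kinds were checked on the genes they point to. Hoxb8, the factor that names the line, was listed at 0 in all 6 floxed libraries and at 627 and 552 units in the 2 Hoxb8 libraries. Esr1, the oestrogen receptor, stood at 44.8 to 97.3 units (median 61.7) in floxed GMPs and 500.1 and 453 units in Hoxb8 cells (log2FC -2.83 ± 0.21 SE, adjusted p = 7.81e-08). Fragments of a receptor fusion and of the cell's own Esr1 gene are not separated in these values. Rptor (log2FC -0.28) and Tsc2 (log2FC -0.39) were not kept in either direction. No library compared here is titled as a knockout, so neither gene checks the genotype titles.

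The sort genes gave a mixed picture at the RNA level. Kit, the receptor for SCF, was moderately higher, at 757 to 1052 units (median 857) in floxed GMPs and 541 and 479.7 units in Hoxb8 cells (log2FC 0.79 ± 0.13 SE, adjusted p = 0.00118). Cd34, a progenitor sialomucin, differed far more, at 1182, 1050.2 and 1044 units in Raptor fl/fl GMPs, 1210.3, 701 and 1052 in Tsc2 fl/fl GMPs, and 74.3 and 29 in Hoxb8 cells (log2FC 4.43 ± 0.32 SE, adjusted p = 6.17e-06). Every GMP library lay above both Hoxb8 libraries by a wide margin. Flt3, whose product CD135 was gated out, was detected in each floxed library at 45.2 to 95.2 units (median 64.8) and at 0 and 0.83 units in Hoxb8 cells, so its RNA was higher on the gated side. Ly6a, which encodes Sca-1, lay at 13.2 to 23.8 units (median 16.6) in floxed GMPs and 246 and 313 units in Hoxb8 cells (log2FC -3.93). Ly6c2 lay at 54.1 to 269 units (median 174) in floxed GMPs and 1322 and 1889 units in Hoxb8 cells (log2FC -3.28). Ly6c2 and its copy Ly6c1 are near-identical genes, so their split is uncertain. Csf1r, the M-CSF receptor, was lower (54.1 to 199 units, median 139, in floxed GMPs, 1669 and 1849.9 units in Hoxb8 cells; log2FC -3.78). Fcgr3, part of the FcγRII/III signal, did not pass: the other 5 floxed libraries held 279 to 311 units, Tsc2 fl/fl replicate 2 held 44 and the Hoxb8 libraries 539.6 and 725 units. Of the 11 sort genes 3 were higher (27.3%, against 23.4% of all genes) and 6 lower (54.5%, against 17.5%). Of the 10 lineage panel genes 5 were higher (50%) and 3 lower (30%). The panel's lower genes included Itgam, the integrin chain CD11b of mature myeloid cells, at 18.6 to 52.9 units (median 28.9) in floxed GMPs and 2481 and 2615 units in Hoxb8 cells (log2FC -6.31).

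**Figure D2:**
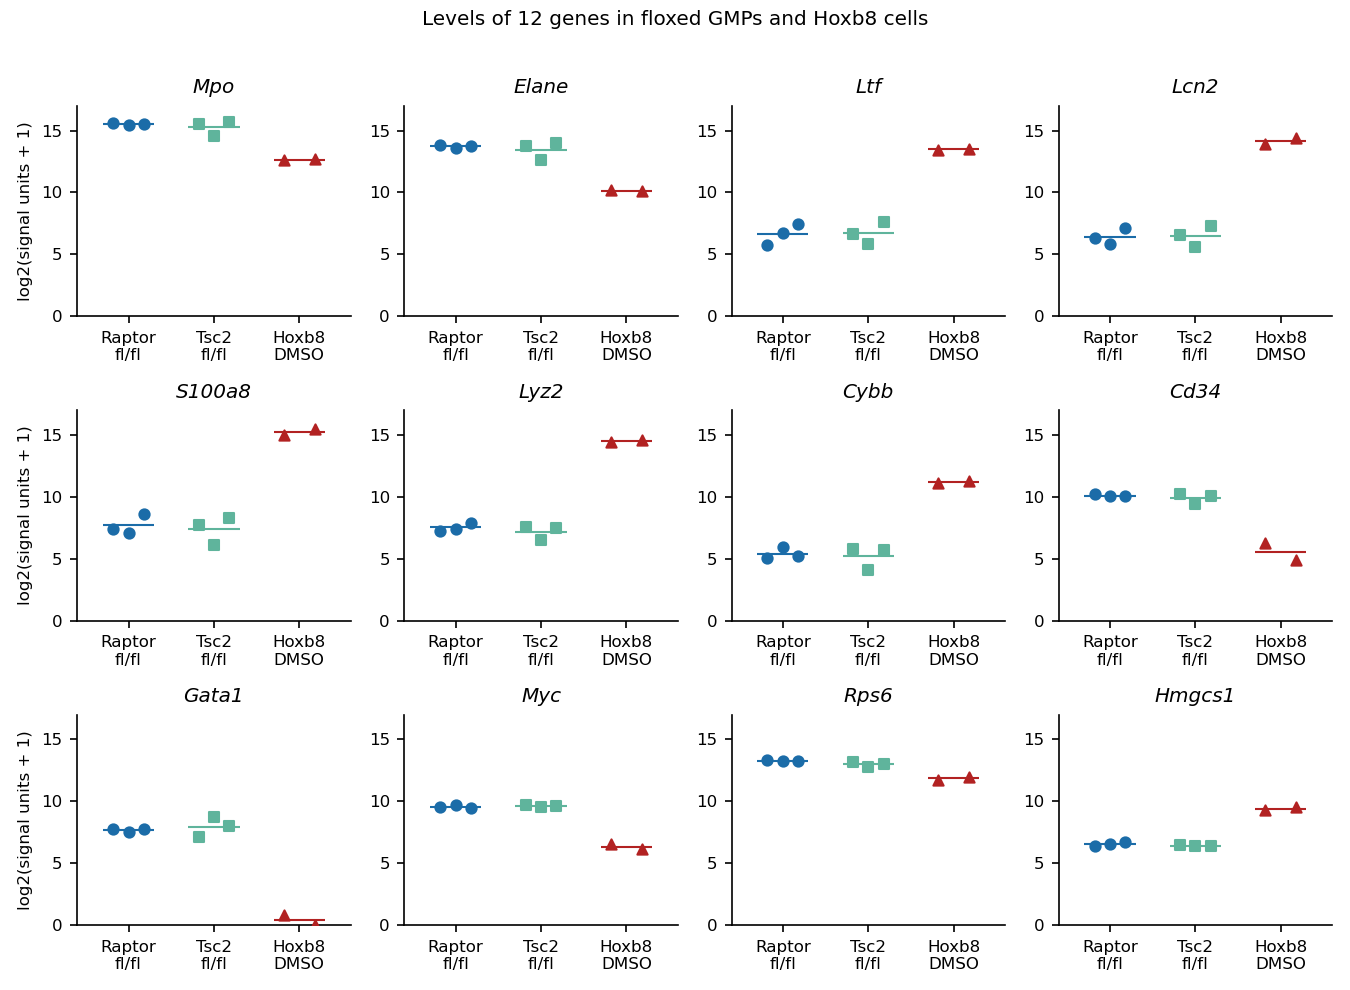
Levels of 12 genes on the scale log2(signal units + 1), one point per library and a line at the group mean, for Raptor fl/fl GMPs (circles), Tsc2 fl/fl GMPs (squares) and Hoxb8 DMSO cells (triangles). Mpo, Elane, Cd34, Gata1, Myc and Rps6 lie higher in the GMPs. Ltf, Lcn2, S100a8, Lyz2, Cybb and Hmgcs1 lie higher in the line. No panel shows overlap, as is the case for 54.2% of all tested genes.

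Secondary granule genes were lower in floxed GMPs almost throughout. Of 28 members measured, 23 were tested. In both floxed groups 0 were higher and 22 lower (95.7%, against 17.5% of all genes). The median log2 fold change was -6.02 (-6.80 with genes at 0 in 1 cell kind set at the limit that 3 fragments over its libraries allow). Their summed level was 881 to 2376 units in floxed GMPs and 77879 and 102532 units in Hoxb8 cells. Ltf, which encodes the iron-binding lactoferrin, stood at 53.4, 104 and 178 units in Raptor fl/fl GMPs, 99.7, 57.5 and 194 in Tsc2 fl/fl GMPs, and 10967 and 11899 in Hoxb8 cells (log2FC -6.80 ± 0.60 SE, adjusted p = 3.37e-04). Camp, the precursor of the antimicrobial peptide cathelicidin, stood at 53.4, 54.5 and 197 units in Raptor fl/fl GMPs, 85, 29.6 and 113 in Tsc2 fl/fl GMPs, and 2707 and 3232 in Hoxb8 cells (log2FC -5.30 ± 0.72 SE, adjusted p = 0.00315). Both genes were low in all 6 GMP libraries and high in both cultured ones, with a spread of several fold among the GMPs. Ngp, neutrophilic granule protein, lay at 90.5 to 392 units (median 129.8) in floxed GMPs and 21536 and 30475 units in Hoxb8 cells (log2FC -7.21). Lcn2, the siderophore-binding lipocalin, lay at 47.4 to 159 units (median 84.9) in floxed GMPs and 15371 and 21923 units in Hoxb8 cells (log2FC -7.71). In each of these 4 genes the lowest Hoxb8 library lay more than 10 times above the highest GMP library.

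The promoters of these 4 genes are shown because these genes stand for the list and because 3 of them share a chromosome: Camp, Ngp and Ltf lie on chromosome 9, with 570 kb between the starts of Camp and Ngp and 599 kb between those of Ngp and Ltf. C/EBP factors, Cebpe above all, are known to drive specific granule genes. Capitals mark matches to the C/EBP letters TTNNGNAA, searched on both strands; each run is the 250 bases before the start of the gene in RefSeq, read along the gene's strand, on the build GRCm38.p6. Which build the study mapped to is not stated by its labels. The intervals are chr9:111019042-111019291 (plus strand) for Ltf, chr9:110419558-110419807 (plus strand) for Ngp, chr9:109849457-109849706 (minus strand) for Camp and chr2:32387740-32387989 (minus strand) for Lcn2.
Ltf: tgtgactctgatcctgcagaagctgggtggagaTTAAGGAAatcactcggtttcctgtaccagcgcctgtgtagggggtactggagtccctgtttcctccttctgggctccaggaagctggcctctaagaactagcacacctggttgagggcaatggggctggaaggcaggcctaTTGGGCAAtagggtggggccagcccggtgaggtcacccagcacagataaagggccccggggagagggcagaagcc
Ngp: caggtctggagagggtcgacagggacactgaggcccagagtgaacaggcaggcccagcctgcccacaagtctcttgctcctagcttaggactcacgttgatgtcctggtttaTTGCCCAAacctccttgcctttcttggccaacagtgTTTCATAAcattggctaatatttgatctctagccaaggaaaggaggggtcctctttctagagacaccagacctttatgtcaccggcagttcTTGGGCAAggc
Camp: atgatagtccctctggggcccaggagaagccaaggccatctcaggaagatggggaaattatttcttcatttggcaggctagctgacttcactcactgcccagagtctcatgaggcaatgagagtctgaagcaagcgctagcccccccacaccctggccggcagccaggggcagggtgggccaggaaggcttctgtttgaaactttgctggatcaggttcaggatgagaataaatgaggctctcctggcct
Lcn2: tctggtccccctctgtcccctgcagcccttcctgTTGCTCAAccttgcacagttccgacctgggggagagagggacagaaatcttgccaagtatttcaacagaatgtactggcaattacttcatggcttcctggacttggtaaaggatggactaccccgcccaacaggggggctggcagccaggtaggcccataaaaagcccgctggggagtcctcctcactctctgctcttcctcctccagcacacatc
Ngp held 3 matches, Ltf 2, Lcn2 1 and Camp 0. Of the 22 secondary granule genes that were lower, 20 had a promoter in the table and 14 of these (70.0%) held the letters, against 36.9% of all 27025 promoters. Near copies among the genes were counted one by one. The letters also stood in 9 of 20 promoters (45%) of the erythroid genes that were higher. A match to so short a pattern is a description of the sequence and not a binding site.

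Other members of the list also differed. Fcnb, the lectin ficolin B, lay at 6.94 to 33.3 units (median 14.3) in floxed GMPs and 4299.7 and 4572 units in Hoxb8 cells (log2FC -8.24). Chil3, a chitinase-like secreted protein, lay at 10.1 to 73.8 units (median 35.6) in floxed GMPs and 4312 and 5583 units in Hoxb8 cells (log2FC -7.26). Olfm4, a glycoprotein of a neutrophil subset, lay at 0 to 4.06 units (median 0.904) in floxed GMPs and 1465 and 1788 units in Hoxb8 cells (log2FC -9.59). The stefin A cluster, cysteine protease inhibitors of neutrophils, was close to silent in GMPs: Stfa1 was listed at 0 in all 6 floxed libraries and at 1606 and 2371 units in the Hoxb8 libraries, and Stfa2l1 at 0 to 0.778 units (median 0) in floxed GMPs and 721 and 1063 units in Hoxb8 cells. The stefin copies resemble each other closely, so how fragments were split among them is uncertain. Orm1 was the tested member that did not pass, and 5 members stayed below the level needed for a test. Cebpe itself was lower to a lesser degree, at 30.3 to 65.4 units (median 55.8) in floxed GMPs and 162 and 160.2 units in Hoxb8 cells (log2FC -1.62 ± 0.27 SE, adjusted p = 4.54e-04).

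Primary granule genes went both ways. Of 24 tested, 10 were higher (41.7%, against 23.4% of all genes) and 9 lower (37.5%, against 17.5%) in floxed GMPs. The list had a median of 0.45. Without Tsc2 fl/fl replicate 2 the counts were 12 higher and 9 lower, and without Hoxb8 DMSO replicate 1 they were 6 and 9. On the higher side were the enzymes that define the azurophil granule. Mpo, myeloperoxidase, stood at 48895, 44423 and 46435 units in Raptor fl/fl GMPs, 48343, 23511 and 52221 in Tsc2 fl/fl GMPs, and 6305 and 6634 in Hoxb8 cells (log2FC 2.72 ± 0.30 SE, adjusted p = 6.84e-04). Elane, neutrophil elastase, stood at 14511, 12479.9 and 13828 units in Raptor fl/fl GMPs, 13737, 6417 and 16283 in Tsc2 fl/fl GMPs, and 1154 and 1109 in Hoxb8 cells (log2FC 3.45 ± 0.34 SE, adjusted p = 3.68e-04). In both genes the lowest GMP library was Tsc2 fl/fl replicate 2, and it still lay above the Hoxb8 libraries. Ctsg, cathepsin G, lay at 2837 to 8172 units (median 6523) in floxed GMPs and 865 and 1178 units in Hoxb8 cells (log2FC 2.57). Prtn3, proteinase 3, lay at 2229 to 6916 units (median 4971) in floxed GMPs and 1545 and 1679.8 units in Hoxb8 cells (log2FC 1.53). Srgn, the proteoglycan serglycin that packs granule proteases, was higher (log2FC 2.18), as were Nkg7 (log2FC 6.41), a granule membrane protein of cytotoxic cells and progenitors, and Calr (log2FC 2.53), the chaperone that folds myeloperoxidase. Elane and Prtn3 lie 6.65 kb apart on chromosome 10 by the distance of their starts.

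The promoters of Mpo and Elane are shown as the counterpart of those above. Capitals mark GAGGAAGT, a form of the binding sequence of the myeloid factor PU.1, on both strands; these letters were chosen after the sequences had been read. The intervals are chr11:87793534-87793783 (plus strand) for Mpo and chr10:79886062-79886311 (plus strand) for Elane.
Mpo: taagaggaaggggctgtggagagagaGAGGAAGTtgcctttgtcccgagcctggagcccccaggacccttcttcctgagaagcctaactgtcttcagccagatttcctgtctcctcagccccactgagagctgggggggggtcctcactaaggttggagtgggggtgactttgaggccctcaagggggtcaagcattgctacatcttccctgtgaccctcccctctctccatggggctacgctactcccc
Elane: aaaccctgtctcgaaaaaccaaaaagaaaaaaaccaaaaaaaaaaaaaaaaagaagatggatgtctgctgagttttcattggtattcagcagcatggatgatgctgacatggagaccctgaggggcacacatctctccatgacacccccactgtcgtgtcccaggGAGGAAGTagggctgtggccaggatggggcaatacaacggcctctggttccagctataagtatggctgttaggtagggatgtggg
The letters stood in 3 of the 10 promoters of primary granule genes that were higher (30.0%), Mpo and Elane among them, against 2.44% of all promoters; since the letters were read from these promoters, the comparison of shares carries no weight. The C/EBP letters stood in 2 of the same 10 (20%).

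On the lower side were proteins that the primary granule list shares with later stages and with monocytes. Lyz2, the lysozyme of myeloid cells, lay at 89.7 to 237 units (median 172) in floxed GMPs and 22127 and 25356 units in Hoxb8 cells (log2FC -7.18 ± 0.26 SE, adjusted p = 4.58e-09). For Lyz2 the floxed libraries stayed more than 10 times below both Hoxb8 libraries. Its neighbour copy Lyz1 was lower too (log2FC -7.01), with the caution that the copies share sequence. Hp, haptoglobin, lay at 198 to 580.3 units (median 511) in floxed GMPs and 6931 and 7828 units in Hoxb8 cells (log2FC -4.10). Clec5a, a lectin receptor of myeloid cells, lay at 11.8 to 59.3 units (median 43.7) in floxed GMPs and 1227 and 1540.3 units in Hoxb8 cells (log2FC -5.30). Ctsc, the protease that activates the serine proteases of the granule, was lower by a smaller amount (111 to 194 units, median 182, in floxed GMPs, 620.2 and 635 units in Hoxb8 cells; log2FC -1.89). Ms4a3, a marker of the GMP stage, did not pass (log2FC 0.34, adjusted p = 0.65).

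Genes of tertiary granules and mature neutrophils were mostly lower in GMPs. Of 33 tested, 24 were lower (72.7%, against 17.5% of all genes) and 1 was higher (3.03%, against 23.4%), with a median of -3.29. S100a8, a chain of the calcium-binding protein calprotectin, stood at 69.4 to 391 units (median 190.5) in floxed GMPs and 33031 and 45322 units in Hoxb8 cells (log2FC -7.70 ± 0.70 SE, adjusted p = 6.61e-04). S100a9, the other chain, stood at 91.4 to 547 units (median 182) in floxed GMPs and 30793 and 46058 units in Hoxb8 cells (log2FC -7.43). For both chains the Hoxb8 libraries exceeded every GMP library, and 54.2% of all tested genes likewise showed no overlap. Mmp8, neutrophil collagenase, lay at 0 to 15.2 units (median 8.09) in floxed GMPs and 265 and 288 units in Hoxb8 cells (log2FC -5.54). Mmp9, the gelatinase that names the tertiary granule, lay at 0.778 to 15.4 units (median 5.13) in floxed GMPs and 293 and 362 units in Hoxb8 cells (log2FC -5.88). The formyl peptide receptor Fpr1 (0 to 3.61 units, median 0, in floxed GMPs and 254 and 409 units in Hoxb8 cells) and the transporter Slc11a1 of phagosome membranes (0 to 7.78 units, median 0, in floxed GMPs and 329 and 414 units in Hoxb8 cells) were near the floor in GMPs. Smaller differences were seen for Cxcr2 (log2FC -2.32), the chemokine receptor of blood neutrophils, and for Hdc (log2FC -0.63), which makes histamine. Retnlg, Il1b and 6 further members did not pass. The gene that was higher was Ptgs2 (log2FC 1.97), the inducible cyclooxygenase, and it no longer passed with a pseudocount of 5, with the replicate block, with voom weights or without either Hoxb8 DMSO library, among other alternatives.

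The phagocyte oxidase, which makes superoxide, showed the same direction in 9 of 10 tested genes (90%, against 17.5% of all genes). Their median was -2.27. Its membrane subunit Cybb stood at 31.7, 62.3 and 36.5 units in Raptor fl/fl GMPs, 54.6, 16.1 and 50.8 in Tsc2 fl/fl GMPs, and 2167 and 2499.8 in Hoxb8 cells (log2FC -5.88 ± 0.42 SE, adjusted p = 2.69e-06). The partner Cyba lay at 137 to 316 units (median 282) in floxed GMPs and 1982 and 2324 units in Hoxb8 cells (log2FC -3.07), and the cytosolic organizers Ncf1 and Ncf4 were lower (log2FC -3.59 and -3.26). The GTPase Rac2, which completes the enzyme in neutrophils, was lower by a smaller step (log2FC -2.23).

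Monocyte and macrophage genes were more often lower than higher in floxed GMPs. Of 43 tested, 24 were lower (55.8%, against 17.5% of all genes) and 8 higher (18.6%, against 23.4%), with a median of -2.56. Without Tsc2 fl/fl replicate 2 these counts were 26 and 10. Without Hoxb8 DMSO replicate 1 or 2 there were 19 or 17 lower and 7 higher, and with all 6 Hoxb8 libraries as 1 group 17 lower and 8 higher. The macrophage marker Emr1 (F4/80) lay at 2.82 to 21.9 units (median 19.1) in floxed GMPs and 559 and 623 units in Hoxb8 cells (log2FC -5.59). Tlr7, a sensor of single-stranded RNA, lay at 0 to 5.92 units (median 3.1) in floxed GMPs and 149 and 149 units in Hoxb8 cells (log2FC -5.51). On the higher side were Apoe, the lipid carrier of macrophages and early progenitors (577 to 1510.3 units, median 1190.3, in floxed GMPs, 22.1 and 14.9 units in Hoxb8 cells; log2FC 5.83), Ly86 (log2FC 6.02), a partner of a toll-like receptor, and Slc40a1, the iron exporter ferroportin (log2FC 6.39). The monocyte receptor Ccr2 did not pass. Their summed level was 2681 to 5096 units in floxed GMPs and 14312 and 16193 units in Hoxb8 cells.

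Stem and multipotent progenitor genes showed the reverse pattern. Of 34 tested, 22 were higher in floxed GMPs (64.7%, against 23.4% of all genes) and 1 lower (2.94%, against 17.5%). The median was 2.76 (2.63 with genes at their limit). Angpt1, a ligand of the receptor Tek, was listed at 0 in both Hoxb8 libraries and at 198 to 304 units (median 231) in floxed GMPs. Gata2, a factor of stem cells and of mast cell, basophil and megakaryocyte progenitors, stood at 146, 233 and 247 units in Raptor fl/fl GMPs, 257, 300.3 and 312 in Tsc2 fl/fl GMPs, and 0 and 2.49 in Hoxb8 cells (log2FC 7.02 ± 0.37 SE, adjusted p = 3.19e-09). Cd27 (log2FC 6.32), a receptor of the TNF family on progenitors, and Sox4 (log2FC 5.67), a transcription factor, were next to absent from the line. Meis1, a cofactor of Hox proteins, lay at 72.9 to 131 units (median 98.3) in floxed GMPs and 3.95 and 6.64 units in Hoxb8 cells (log2FC 4.01). Hoxa9, its usual partner, lay at 44.8 to 85.8 units (median 69.4) in floxed GMPs and 9.48 and 12.4 units in Hoxb8 cells (log2FC 2.45). Mecom, Hlf and Erg were among the 11 that did not pass. The lower gene was Ifitm3 (log2FC -2.36), a membrane protein of the interferon response. Outside Hoxb8, the Hox list held few large values: Hoxb5 was lower (0 to 3.11 units, median 0, in floxed GMPs, 12.6 and 8.3 units in Hoxb8 cells) and Pbx3, a further cofactor, was lower (log2FC -3.47), and 9 of the 18 tested did not pass.

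Among 43 myeloid transcription factors 18 were higher (41.9%, against 23.4% of all genes) and 11 lower (25.6%, against 17.5%) in floxed GMPs. Fewer were lower without Hoxb8 DMSO replicate 2. Myc, the growth regulator, stood at 727, 851 and 714 units in Raptor fl/fl GMPs, 849, 732 and 775 in Tsc2 fl/fl GMPs, and 90.9 and 68.1 in Hoxb8 cells (log2FC 3.28 ± 0.15 SE, adjusted p = 5.53e-11). Myb, which keeps progenitors proliferating, lay at 603 to 1054 units (median 747) in floxed GMPs and 248 and 179 units in Hoxb8 cells (log2FC 1.85). Irf8, which directs progenitors to monocytes and dendritic cells, lay at 161 to 344 units (median 318) in floxed GMPs and 120.1 and 125 units in Hoxb8 cells (log2FC 1.21). The cell kinds did not overlap in Myc, Myb or Irf8, which also held for 54.2% of all tested genes. Lower were Spi1, the gene of PU.1 (140.1 to 449 units, median 236, in floxed GMPs, 891 and 836 units in Hoxb8 cells; log2FC -1.81), Id2, an inhibitor of helix-loop-helix factors (18.8 to 61.6 units, median 33.3, in floxed GMPs and 827 and 1062 units in Hoxb8 cells; log2FC -4.74), and Bcl6, a repressor (5.64 to 25.3 units, median 10.8, in floxed GMPs and 198 and 239 units in Hoxb8 cells; log2FC -4.02). Spi1 also differed between the floxed groups (-1.05 on the log2 scale, Raptor fl/fl over Tsc2 fl/fl, adjusted p = 0.0182). Cebpa (log2FC 0.76), Cebpb (log2FC -1.33) and Gfi1 (log2FC -0.49), which act at the branch between granulocytes and monocytes, did not pass.

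Markers of other blood lineages were mostly higher in the sorted cells. In the erythroid list, 29 of 33 tested were higher (87.9%, against 23.4% of all genes) and 1 lower (3.03%, against 17.5%). The median was 6.03 (5.86 with genes at their limit). For genes near 0 in the line the size of a log2FC depends on the pseudocount, and this median was 7.24 with a pseudocount of 0.25 and 3.81 with one of 5. The counts were 29 and 1 also without Tsc2 fl/fl replicate 2, but 21 and 1 with voom weights. The summed level ran over 5611 to 17888 units in floxed GMPs and came to 1789.6 and 1828 units in Hoxb8 cells. Gata1, the master factor of red cells and megakaryocytes, stood at 211, 185 and 219 units in Raptor fl/fl GMPs, 138, 415 and 255 in Tsc2 fl/fl GMPs, and 0.79 and 0 in Hoxb8 cells (log2FC 7.39 ± 0.34 SE, adjusted p = 1.73e-10). Klf1, its erythroid partner, stood at 253, 235 and 222 units in Raptor fl/fl GMPs, 143, 722 and 265 in Tsc2 fl/fl GMPs, and 2.37 and 0 in Hoxb8 cells (log2FC 7.19 ± 0.65 SE, adjusted p = 1.26e-04). Tsc2 fl/fl replicate 2 was the highest library for both, and the lowest GMP library was still far above the line. Epor, the erythropoietin receptor, lay at 51.2 to 238 units (median 101) in floxed GMPs and was listed at 0 in both Hoxb8 libraries. Aqp1, a water channel, lay at 208 to 1113 units (median 358) in floxed GMPs and was likewise listed at 0 in both Hoxb8 libraries. Car1, the carbonic anhydrase of erythroid progenitors, lay at 1149 to 3255 units (median 1405) in floxed GMPs and 7.11 and 0 units in Hoxb8 cells (log2FC 9.15). Globin values stayed small: Hbb-b1 lay at 54.5 to 138 units (median 95.2) in floxed GMPs and was listed at 0 in Hoxb8 cells, and the globin copies share sequence. The promoter of Epor is shown for its GATA match, AGATAA on both strands in capitals, at chr9:21963577-21963826 (minus strand).
Epor: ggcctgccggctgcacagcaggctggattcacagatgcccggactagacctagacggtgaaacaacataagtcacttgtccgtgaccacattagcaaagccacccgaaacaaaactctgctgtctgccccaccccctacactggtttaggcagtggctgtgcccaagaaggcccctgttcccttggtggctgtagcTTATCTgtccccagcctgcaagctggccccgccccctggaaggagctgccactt
Of the 29 erythroid genes that were higher, 20 had a promoter in the table and 5 of these (25%) held the letters, against 10.3% of all promoters and 6 of 20 (30.0%) promoters of the secondary granule genes that were lower.

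**Figure D3:**
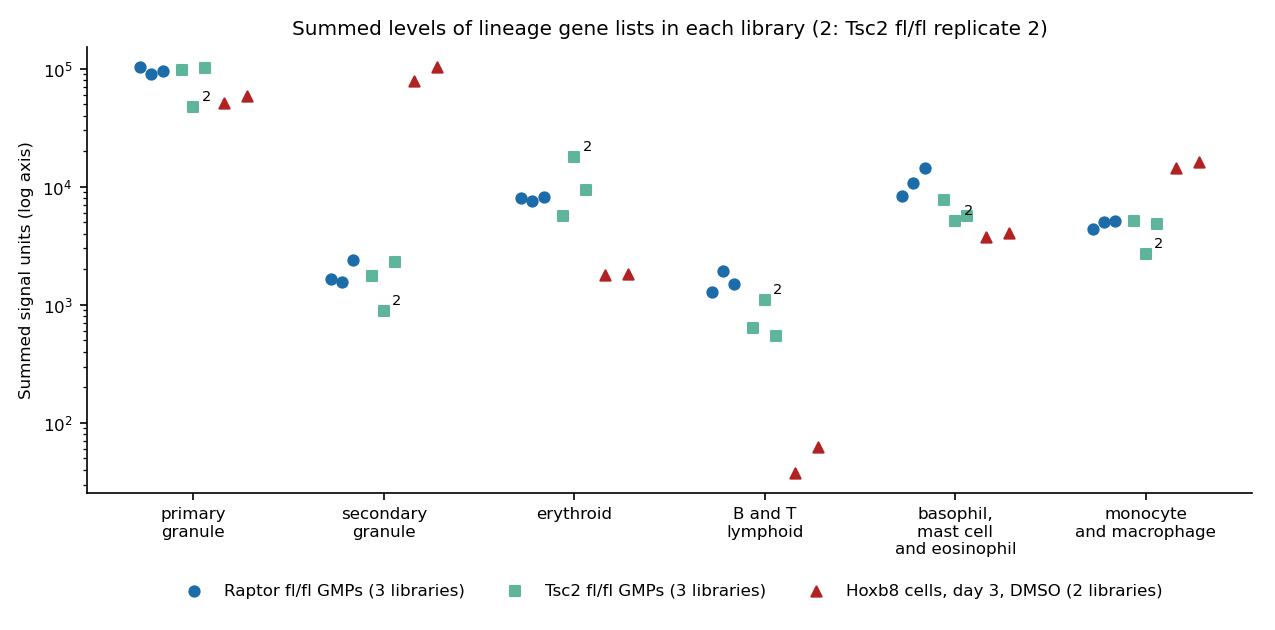
Summed signal units of 6 lineage gene lists in each library, on a log axis, for Raptor fl/fl GMPs (circles), Tsc2 fl/fl GMPs (squares) and Hoxb8 DMSO cells (triangles), with Tsc2 fl/fl replicate 2 marked by a 2. Secondary granule and monocyte genes lie higher in the line, and erythroid, lymphoid and basophil, mast cell and eosinophil genes lie higher in the GMPs. The library marked 2 is the lowest GMP library for primary granule genes, below the Hoxb8 libraries, and the highest for erythroid genes.

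Lists of basophil and mast cell, lymphoid, antigen presentation and platelet genes went the same way by counts of genes. Of 22 basophil, mast cell and eosinophil genes 14 were higher (63.6%, against 23.4% of all genes) and 3 lower (13.6%, against 17.5%). Their median was 3.41, or 3.26 with genes at their limit. With voom weights 11 were higher and 4 lower. Cpa3, carboxypeptidase A of mast cells, was listed at 0 in the line and lay at 439.9 to 1331 units (median 959) in floxed GMPs. Prss34, a basophil protease, lay at 212 to 3550.0 units (median 959.9) in floxed GMPs and 1.58 and 0 units in Hoxb8 cells (log2FC 9.19). Epx, eosinophil peroxidase, lay at 67.7 to 446 units (median 235) in floxed GMPs and 0.79 and 0.83 units in Hoxb8 cells (log2FC 6.95). Both Hoxb8 libraries were at or near 0 for these 3 genes. The whole list summed to 5131 to 14490.5 units in floxed GMPs and 3777 and 4072 units in Hoxb8 cells. In the lymphoid list 20 of 30 were higher (66.7%, against 23.4% of all genes) and 0 lower. The median was 3.10, or 3.17 with genes at their limit. Of the 30, 17 were at 0 in 1 cell kind, and 15 were higher with a pseudocount of 5 (median 1.69). The B cell receptor chain Cd79b lay at 122 to 289 units (median 205) in floxed GMPs and 0.79 and 0.83 units in Hoxb8 cells (log2FC 6.76), while the T cell genes Cd4 and Cd8a did not pass. Summed, the lymphoid list came to 539 to 1948 units in floxed GMPs and 37.9 and 62.2 units in Hoxb8 cells. Among genes of MHC class II and dendritic cells 12 of 22 were higher (54.5%, against 23.4%) and 1 lower (4.55%, against 17.5%). H2-Aa, a class II chain, stood at 121 to 348 units (median 259.7) in floxed GMPs and 0.79 and 0 units in Hoxb8 cells (log2FC 7.42). Megakaryocyte and platelet genes gave 13 higher (52%, against 23.4%) and 4 lower (16%, near the 17.5% of all genes) of 25. Itga2b, the platelet integrin chain, lay at 181 to 411 units (median 258) in floxed GMPs and 2.37 and 1.66 units in Hoxb8 cells (log2FC 6.47). Summed, that list came to 1774 to 2901 units in floxed GMPs and 14211 and 13624 units in Hoxb8 cells. Thbs1, thrombospondin, ran against its list, at 2.54 to 476 units (median 48.9) in floxed GMPs and 12065 and 11449.7 units in Hoxb8 cells (log2FC -8.14). The part that other cells in the sort had in these values was not tested.

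Cytokine and growth factor receptors were mostly lower in floxed GMPs. Of 33 tested, 19 were lower (57.6%, against 17.5% of all genes) and 6 higher (18.2%, against 23.4%). The receptor chains for GM-CSF, Csf2ra (53.3 to 94.1 units, median 78.3, in floxed GMPs, 629.7 and 602 units in Hoxb8 cells; log2FC -3.01) and the shared chain Csf2rb (91.4 to 290.4 units, median 170.1, in floxed GMPs and 751 and 837 units in Hoxb8 cells; log2FC -2.21), were lower, as was the G-CSF receptor Csf3r (129 to 229 units, median 176, in floxed GMPs and 569.7 and 636 units in Hoxb8 cells; log2FC -1.78). Tnfrsf1b, a TNF receptor, showed a larger difference (log2FC -4.12). Among the higher ones were Flt3, Kit, Epor, Il6st (log2FC 3.46), the shared chain of interleukin 6 receptors, and Il10ra (log2FC 1.53). Feedback genes of these receptors showed no common direction: 8 of 25 were higher and 4 lower, beside 23.4% and 17.5% of all genes.

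Genes that respond quickly to stimulation and stress stood high in the sorted cells. Of 28 immediate early genes 19 were higher (67.9%, against 23.4% of all genes) and 2 lower (7.14%, against 17.5%), with a median of 1.89. Fos, a subunit of the AP-1 factor, stood at 1683, 2059.9 and 2003 units in Raptor fl/fl GMPs, 1685, 2249 and 2461 in Tsc2 fl/fl GMPs, and 64 and 61.4 in Hoxb8 cells (log2FC 4.98 ± 0.15 SE, adjusted p = 4.70e-13). Jun, its partner, lay at 1396 to 2718 units (median 1947) in floxed GMPs and 50.6 and 42.3 units in Hoxb8 cells (log2FC 5.33). Fosb lay at 304 to 908 units (median 443) in floxed GMPs and 0.79 and 0.83 units in Hoxb8 cells (log2FC 8.10). Dusp1, which encodes a phosphatase of MAP kinases, lay at 906 to 1335 units (median 1047) in floxed GMPs and 25.3 and 15.8 units in Hoxb8 cells (log2FC 5.69). For all 4 the lowest GMP library lay more than 10 times above the highest Hoxb8 library. Heat shock and chaperone genes were higher in 25 of 28 (89.3%, against 23.4%) and lower in 1 (3.57%, against 17.5%), with a median of 1.36. Hspe1 (635 to 985 units, median 800.0, in floxed GMPs, 83 and 81.3 units in Hoxb8 cells; log2FC 3.26) and Hspd1 (log2FC 2.59), the mitochondrial chaperonins, were higher. Of the stress-induced copies, whose split is uncertain, Hspa1a lay at 5.2 to 50.3 units (median 26.7) in floxed GMPs and Hspa1b at 6.94 to 63.3 units (median 34.2) in floxed GMPs, and both were listed at 0 in the line.

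Cell cycle genes divided by phase. Of 49 S phase genes 22 were higher (44.9%, against 23.4% of all genes) and 2 lower (4.08%, against 17.5%), with a median of 0.40. Of 58 mitosis genes 1 was higher (1.72%) and 36 were lower (62.1%), with a median of -0.66. These counts moved with the libraries and the settings. Without Hoxb8 DMSO replicate 1 or 2, 12 or 14 S phase genes were higher and 21 or 23 mitosis genes lower. Mitosis genes that were lower numbered 27 with libraries scaled to a common total, 20 with quantile normalization and 22 without trend and robust estimation. Among the lower S phase genes, E2f2, a factor that drives entry into S phase, lay at 17.3 to 59.2 units (median 40.1) in floxed GMPs and 268 and 227 units in Hoxb8 cells (log2FC -2.79). The higher members differed by less. Pold2, a subunit of a DNA polymerase, lay at 333 to 416 units (median 361) in floxed GMPs and 119 and 101 units in Hoxb8 cells (log2FC 1.75). Dut, which clears dUTP, lay at 677 to 972 units (median 876) in floxed GMPs and 333 and 354 units in Hoxb8 cells (log2FC 1.31). Among mitosis genes, the kinetochore subunits Ndc80 (67.8 to 87.5 units, median 77.5, in floxed GMPs, 199.9 and 212 units in Hoxb8 cells; log2FC -1.42) and Spc25 (log2FC -1.43) were lower, along with Kif23 (log2FC -1.39) and Racgap1 (log2FC -1.31) of the midbody. D-type cyclins differed in opposite directions. Ccnd2 lay at 316 to 442 units (median 383) in floxed GMPs and 30 and 13.3 units in Hoxb8 cells (log2FC 4.19 ± 0.23 SE, adjusted p = 1.09e-09). Ccnd3 lay at 465 to 742 units (median 569) in floxed GMPs and 2563 and 2381 units in Hoxb8 cells (log2FC -2.10 ± 0.16 SE, adjusted p = 2.14e-08). The inhibitor Cdkn2d was lower (log2FC -2.64). Of 17 Bcl2 family genes 2 were higher (11.8%, against 23.4% of all genes) and 6 lower (35.3%, against 17.5%). Both counts were smaller without Hoxb8 DMSO replicate 2. Bcl2 itself was higher (88 to 152 units, median 126, in floxed GMPs, 4.74 and 10.8 units in Hoxb8 cells; log2FC 3.89), and so was Bok, a pro-death member (0.941 to 7.01 units, median 5.04, in floxed GMPs, listed at 0 in both Hoxb8 libraries). The pro-death genes Bcl2l11 (log2FC -1.58), Pmaip1 (log2FC -1.67) and Bmf (log2FC -1.84) were lower, as was Bcl2a1b, a pro-survival member with near copies (0 to 0.811 units, median 0, in floxed GMPs, 4.74 and 4.15 units in Hoxb8 cells).

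The translation lists were higher nearly throughout. Of 82 cytosolic ribosomal protein genes 80 were higher (97.6%, against 23.4% of all genes) and 0 lower, with a median of 1.26; with all 6 Hoxb8 libraries as 1 group 53 were higher. Rps6, chosen after its values had been seen, is the small subunit protein that S6 kinase phosphorylates downstream of mTORC1, and stood at 10444, 9729 and 9714 units in Raptor fl/fl GMPs, 9238, 6910.3 and 8419 in Tsc2 fl/fl GMPs, and 3457 and 4012 in Hoxb8 cells (log2FC 1.27 ± 0.11 SE, adjusted p = 9.49e-07). Ribosomal protein genes took 269671 to 406028 units in sum in floxed GMPs and 136886 and 161804 in Hoxb8 cells. Of 50 nucleolar ribosome biogenesis genes 48 were higher (96%, against 23.4%) and 0 lower, with a median of 1.79. Gnl3 (nucleostemin) lay at 280.3 to 424 units (median 378) in floxed GMPs and 26.9 and 43.2 units in Hoxb8 cells (log2FC 3.38). Dkc1, the pseudouridine synthase, lay at 639 to 770.3 units (median 699) in floxed GMPs and 99.6 and 87.1 units in Hoxb8 cells (log2FC 2.89). Gar1, its partner, lay at 33.2 to 77 units (median 40.8) in floxed GMPs and 1.58 and 1.66 units in Hoxb8 cells (log2FC 4.16). The 2 cell kinds did not overlap in any of these 3 genes, as in 54.2% of all tested genes. Many ribosomal protein genes have processed pseudogenes, so single values are less certain than the list. Scaling by a common total or by quantiles moved the median of all genes by 0.10 and -0.11, which is small against these medians.

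**Figure D4:**
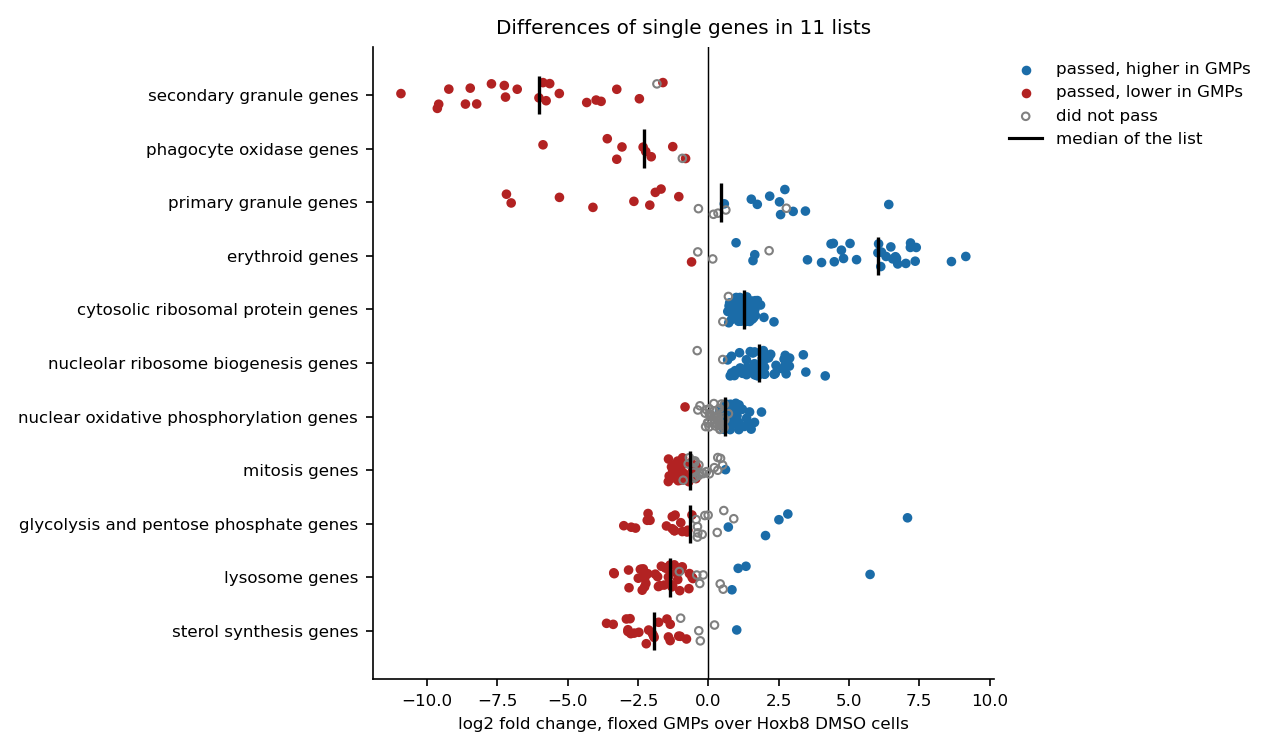
Log2 fold changes of single genes, floxed GMPs over Hoxb8 DMSO cells, in 11 lists; filled points passed in both floxed groups (blue higher, red lower), open points did not, and black bars mark medians. Points of the secondary granule list reach below -10 and those of the erythroid list reach above 9, while the ribosomal protein points sit close to their median of 1.26.

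Metabolic genes fell into opposite groups. By share, 54.5% of oxidative phosphorylation genes were higher, against 23.4% of all genes, and 1.3% lower, against 17.5%. Of 77 nuclear genes of oxidative phosphorylation 42 were higher and 1 lower (median 0.58), and without Hoxb8 DMSO replicate 1 there were 26 higher. Atp5g1, a subunit of the ATP synthase, lay at 718 to 1209 units (median 910.3) in floxed GMPs and 225 and 287 units in Hoxb8 cells (log2FC 1.89). Genes of glycolysis and the pentose phosphate path were lower in 17 of 32 (53.1%) and higher in 5 (15.6%), with a median of -0.66. Pgd, which makes NADPH, lay at 395 to 629 units (median 494) in floxed GMPs and 2926 and 3004 units in Hoxb8 cells (log2FC -2.59 ± 0.15 SE, adjusted p = 1.10e-09), and the lactate exporter Slc16a3 at 15.2 to 25.2 units (median 21.4) in floxed GMPs and 184 and 166 units in Hoxb8 cells (log2FC -3.01). Ldhb, a lactate dehydrogenase chain, ran the other way and was listed at 0 in the line (56.7 to 207 units, median 151, in floxed GMPs). Amino acid and tRNA synthetase genes were higher in 25 of 45 (55.6%) and lower in 4 (8.89%). The leucine transporter Slc7a5 was higher (log2FC 3.31). Slc7a11, the cystine importer, was lower (6.07 to 11.3 units, median 9.12, in floxed GMPs, 276 and 274 units in Hoxb8 cells, log2FC -4.78).

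Sterol synthesis genes, targets of the factor SREBP2, were lower in 22 of 27 (81.5%, against 17.5% of all genes). The list had 1 higher gene (3.7%, against 23.4%) and a median of -1.93. Hmgcs1, an early enzyme of the pathway, stood at 84.4, 94.2 and 104 units in Raptor fl/fl GMPs, 89.3, 82.9 and 80.9 in Tsc2 fl/fl GMPs, and 634 and 725 in Hoxb8 cells (log2FC -2.92 ± 0.17 SE, adjusted p = 1.90e-09). Msmo1, a late one, lay at 29.6 to 62 units (median 47.6) in floxed GMPs and 527 and 586 units in Hoxb8 cells (log2FC -3.62). For both genes all libraries of each kind lay on their own side, as in 54.2% of all tested genes. The promoter of Hmgcs1 is shown for its match, in capitals, to a sterol element, TCACNCCA on both strands, at chr13:119690101-119690350 (plus strand).
Hmgcs1: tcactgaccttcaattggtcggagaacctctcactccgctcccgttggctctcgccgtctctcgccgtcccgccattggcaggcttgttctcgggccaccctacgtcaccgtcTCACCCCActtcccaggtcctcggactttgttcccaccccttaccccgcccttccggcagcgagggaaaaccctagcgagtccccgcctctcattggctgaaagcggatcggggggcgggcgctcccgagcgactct
Of the 22 sterol genes that were lower, 15 had a promoter in the table and 3 of these (20%) held the letters, against 3.58% of all promoters.

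Lysosome genes were lower in 41 of 51 (80.4%, against 17.5% of all genes) and higher in 4 (7.84%, against 23.4%), with a median of -1.36. The proteases Ctsd (855 to 1176 units, median 998, in floxed GMPs, 7117 and 7306 units in Hoxb8 cells; log2FC -2.84) and Ctsb (532 to 716 units, median 672, in floxed GMPs and 4515 and 4651 units in Hoxb8 cells; log2FC -2.82) were lower, as were Psap (log2FC -3.35), the precursor of lipid-degrading cofactors, and Grn (log2FC -3.36), progranulin. Ctse, a protease of erythroid and other cells, was higher (309.5 to 1168 units, median 461, in floxed GMPs, 5.53 and 12.4 units in Hoxb8 cells; log2FC 5.75).

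The pathways that the study manipulates were examined next. Of 31 genes of mTORC1, mTORC2 and the TSC complex 3 were higher (9.68%, against 23.4% of all genes) and 6 lower (19.4%, against 17.5%), and Mtor, Rptor, Rictor, Tsc1 and Tsc2 did not pass. Deptor, an inhibitor that binds mTOR, was higher (60.9 to 97.4 units, median 84.1, in floxed GMPs, 21.3 and 23.2 units in Hoxb8 cells; log2FC 1.83), as was Sesn1 (log2FC 1.68), a leucine-responsive inhibitor. Mlst8, a subunit of both complexes (log2FC -1.73), and Lamtor1, the anchor of mTORC1 at the lysosome (log2FC -1.56), were lower. Of 23 genes of the RSK, MSK and ERK pathway 4 were higher (17.4%, against 23.4% of all genes) and 9 lower (39.1%, against 17.5%). The RSK genes differed in direction: Rps6ka1 lay at 339 to 509 units (median 441) in floxed GMPs and 1457 and 1413 units in Hoxb8 cells (log2FC -1.74). Rps6ka3 lay at 107 to 209 units (median 168) in floxed GMPs and 57.7 and 53.1 units in Hoxb8 cells (log2FC 1.52).

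The second comparison set knockout GMPs (6 libraries) against inhibitor-treated Hoxb8 cells (4 libraries), in which genotype and drug differ from the controls. Over its 13689 tested genes 33.6% were higher and 23.7% lower in knockout GMPs. Of the 3116 kept higher genes tested there 2796 (89.7%) were again higher and 4 were lower. Of the 2319 kept lower genes 2051 (88.4%) were again lower and 19 were higher. Among genes past 4-fold the shares were 93.5% and 91.7%. By list, members were counted here whether or not they had been kept. Of 23 secondary granule genes 21 were lower, and of 32 erythroid genes 29 were higher. Of 82 ribosomal protein genes 75 were higher, and of 27 sterol genes 23 were lower.

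Of the primary granule enzymes, Mpo and Elane did not pass a second time. Mpo lay at 4819.6 to 38005 units in knockout GMPs and 14939.5 to 43031 units in inhibitor-treated Hoxb8 cells (log2FC -0.48, adjusted p = 0.399), and Elane at 1205 to 13046 units in knockout GMPs and 2917 to 4836 units in inhibitor-treated Hoxb8 cells (log2FC 0.68, adjusted p = 0.262). Their ranges overlapped. Of 24 tested primary granule genes 4 were higher and 12 lower, beside 33.6% higher and 23.7% lower over all genes of that comparison. Kit did not pass there (log2FC 0.11, adjusted p = 0.343). Myc passed with a log2FC of 0.67, beside 3.28 in the first comparison, and the change between the comparisons was not tested. Of the genes with opposite signs, Gpnmb, a lysosomal glycoprotein of macrophages, was lower in floxed GMPs (0 to 4.06 units, median 0.778, in floxed GMPs, 49 and 44 units in Hoxb8 cells; log2FC -4.71) and higher in knockout GMPs (164 to 580.5 units, against 2.27 to 5.25 in inhibitor-treated Hoxb8 cells; log2FC 6.33). The galectin Lgals3 (log2FC -4.54 and 1.10), the protease Ctss (log2FC -1.81 and 3.52) and the receptor Trem2 (log2FC -5.59 and 1.18) did the same; Gpnmb, Lgals3, Ctss and Trem2 were singled out after their values had been seen. Monocyte and macrophage genes as a list gave 20 higher and 19 lower of 43, beside the same 33.6% and 23.7% of all genes.

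**Figure D5:**
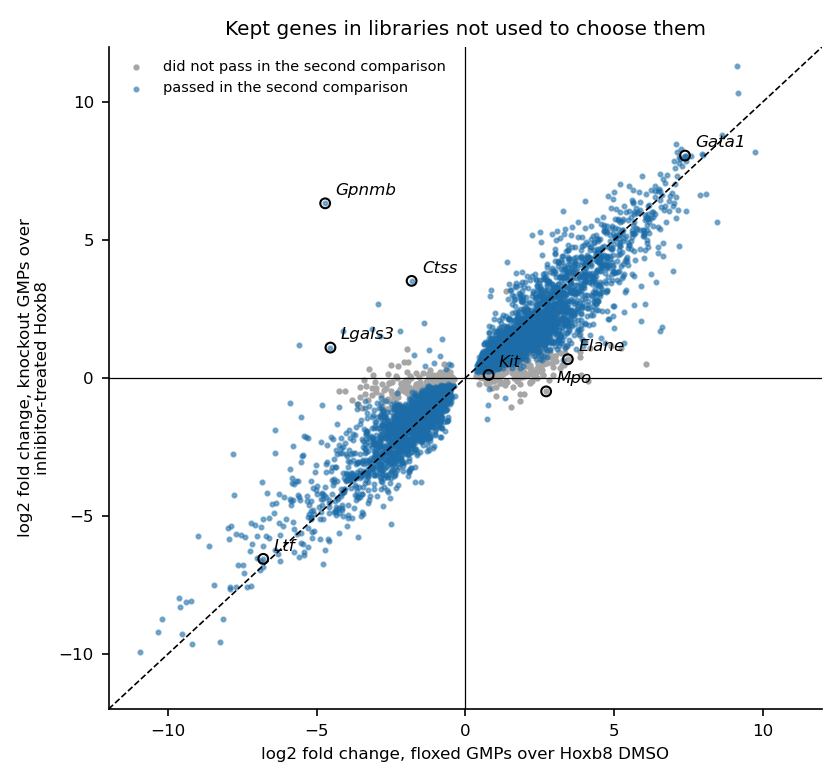
Log2 fold changes of kept genes in the first comparison (x axis, floxed GMPs over Hoxb8 DMSO cells) and in the second (y axis, knockout GMPs over inhibitor-treated Hoxb8 cells), one point per gene, blue where the second also passed and grey where it did not; the dashed line marks equal values. Most points follow the line, Mpo, Elane and Kit lie near 0 on the y axis, and Gpnmb, Ctss and Lgals3 lie in the upper left field, with opposite signs.

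Between Raptor fl/fl and Tsc2 fl/fl GMPs, with 3 libraries each, 195 genes (1.46%) passed. Of these, 36 were higher in Raptor fl/fl and 159 in Tsc2 fl/fl, and 72 were kept against the line. A count of genes that pass does not measure how far the groups differ. Genes that passed against the line in 1 floxed group alone numbered 943 for Raptor fl/fl and 990 for Tsc2 fl/fl, which does not show that the groups differ in them. Brap and Rnf10 passed in both with opposite signs. Brap, which binds BRCA1 and Ras-pathway scaffolds, stood at 57, 30.4 and 49.5 units in Raptor fl/fl GMPs, 146, 144 and 116 in Tsc2 fl/fl GMPs, and 92.4 and 71.4 in Hoxb8 cells; its Hoxb8 level lay between both groups. Rnf10, a ubiquitin ligase, stood at 179.7, 182 and 188 units in Raptor fl/fl GMPs, 354, 388 and 342 in Tsc2 fl/fl GMPs, and 255 and 239.8 in Hoxb8 cells. The Hoxb8 level of Rnf10 also lay between both groups. The count of 195 rested on single libraries: it was 57 without Raptor fl/fl replicate 1, 64 without Raptor fl/fl replicate 2 and 92 without Tsc2 fl/fl replicate 3.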

How the data were processed

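RNA sequencing libraries were made by SmartSeq2 from sorted GMPs and from a Hoxb8 line. The deposited table gives 1 signal value per gene and library, which the authors made with BWA, TopHat2 2.0.10 and Cufflinks 2.2.1 with Cuffnorm, per the submitters' processing notes, in which their roles and order are not given; the sources used here name no genome build. Within a library, 98.9 to 99.1% of values were whole multiples of 1 step to within 0.01 of a step, so a value behaves as a fragment count over a size factor, and the step gave the depth of 2.48 to 3.38 M fragments per library. Because not every value was whole, the main test was not a count test. Voom weights were computed on recovered fragments, rounded to whole numbers, as an alternative. Values at 0 may be failed estimates. Library values are not per length, so levels of different genes are not compared.

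Values of at least 1 in 2 or more of the 8 libraries were tested on log2(value + 1) with limma 3.58.1 (R 4.3.3; trend and robust moderation, 3 groups, Benjamini-Hochberg at 0.05 within each contrast, two-sided), checked on simulated data. The second comparison used the same settings on 10 libraries and 4 groups, as the mean of both knockout groups minus the mean of both inhibitor groups. Both contrasts of the rule had to pass with the same sign. Genes were named by rule: genes that check the labels and the sort, the 15 highest and 15 lowest kept genes of at least 100 units without overlap, up to 6 kept genes per list, members of the lists on granules, mature neutrophils, stem cells, myeloid factors, erythroid cells, receptors and mTOR, and genes that differ between the floxed groups. Any gene said to be chosen after its values were seen falls outside the rule. The members and the 39 lists were chosen with earlier results of these data known. Promoters came from RefSeq (GRCm38.p6), matched by symbol. Alternatives covered pseudocount, filter, scaling, moderation, grouping, replicate block, voom weights and single libraries left out.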

Additional observations from a re-analysis of the deposited data

Results flagged for a closer look

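A library stood apart from the other 5 floxed GMP libraries, by the gap to its nearest neighbour over the whole range, in 6 of 41 summary measures; chance flags about 1 measure in 20, and the measures share libraries and genes. In 5 of them it was Tsc2 fl/fl replicate 2. Mpo took 1.09% of its signal, against 1.91 to 2.24% in the others. Its primary granule genes summed to 47031 units, against 89861 to 102484 units in the others, and its monocyte and macrophage genes to 2681 units, against 4409.8 to 5096. Its erythroid genes summed to 17888 units, against 5611 to 9459.7 in the others, and its S phase genes to 26235 units, against 20959 to 22853. In the sixth measure it was Raptor fl/fl replicate 1, whose genes of mTORC1, mTORC2 and the TSC complex summed to 3556 units, against 2976 to 3188 in the other 5 floxed libraries.

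Between the control groups 195 genes differed (limma, adjusted p under 0.05). The differences given are Raptor fl/fl over Tsc2 fl/fl on the log2 scale, 3 libraries each. Dusp2, a phosphatase of activated cells, differed by -2.22 (adjusted p = 0.00101), at 35.4, 66.9 and 85.2 units in Raptor fl/fl GMPs, 339.9, 247 and 251 in Tsc2 fl/fl GMPs, and 32.4 and 27.4 in Hoxb8 cells. Dyrk3, a kinase of erythroid cells, differed by -1.98 (adjusted p = 0.0031), at 33.2, 49.8 and 69.8 units in Raptor fl/fl GMPs, 157, 233 and 205 in Tsc2 fl/fl GMPs, and 5.53 and 4.98 in Hoxb8 cells. Rac1, a GTPase, differed by -1.72 (adjusted p = 0.00119), at 212, 195 and 296 units in Raptor fl/fl GMPs, 532, 829.9 and 999.8 in Tsc2 fl/fl GMPs, and 841 and 755 in Hoxb8 cells. In all 3 genes every Tsc2 fl/fl library lay above every Raptor fl/fl library. Slc4a1, the anion exchanger of red cells, ran the other way (1.73, adjusted p = 0.0294), at 93.1, 156 and 139.6 units in Raptor fl/fl GMPs, 36.4, 52.5 and 27.3 in Tsc2 fl/fl GMPs, and 0 and 0 in Hoxb8 cells. Gclm, which helps make glutathione, differed by -1.82 (adjusted p = 0.0388), Ndnl2 by -1.81 (adjusted p = 0.00242), Ank by -1.66 (adjusted p = 0.0172) and the cyclin Ccny by -1.62 (adjusted p = 0.00414). Brap (-1.58, adjusted p = 0.00457) and Rnf10 (-0.97, adjusted p = 0.00294) lay on opposite sides of the line in the pair of groups. Spi1 (-1.05, adjusted p = 0.0182) and Cebpb (-3.66, adjusted p = 0.00622; 0.721, 0 and 0.811 units in Raptor fl/fl GMPs, 18.2, 7.61 and 36.7 in Tsc2 fl/fl GMPs, and 15.8 and 9.13 in Hoxb8 cells) were the myeloid factors named above that differed between the groups.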

How the results depend on the processing

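Across the alternatives the kept genes numbered 2392 to 3684 on the higher side (3120 as reported) and 1564 to 2806 on the lower side (2326), and no gene kept both as reported and under an alternative changed direction. Leaving out 1 library gave 2392 to 3122 higher and 1564 to 2355 lower, with the lowest counts without either Hoxb8 DMSO library. Replicate numbers did not pair the libraries (correlation of same-numbered deviations -0.03 to 0.05); with the replicate number as a block 2955 genes were higher and 2229 lower. The 4-fold higher genes numbered 795 with a pseudocount of 5, against 1382. The 195 genes between the floxed groups became 4 without trend and robust estimation and 125 with all 6 Hoxb8 libraries as 1 group, and 57 to 209 with 1 library left out. With all 6 Hoxb8 libraries as 1 group 53 of 82 ribosomal protein genes were higher and the median of the primary granule list was -0.16, against 0.45. Of 183 named genes 148 had the same call under every alternative; Ctss changed sign with all 6 Hoxb8 libraries as 1 group (log2FC 0.55, adjusted p = 0.738, against -1.81). The cause of these changes was not tested. Apart from voom weights on rounded fragments, count methods were not run, because not every deposited value was a whole multiple of 1 fragment. Genes with few fragments limit the size of fold changes: near 0 in 1 cell kind they depend on the pseudocount.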

Other observations

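Further gene groups are given beside the background of 23.4% higher and 17.5% lower over all genes. Of 31 adhesion and chemotaxis genes 6 were higher (19.4%) and 16 lower (51.6%) in floxed GMPs. Itgb2, the integrin chain CD18, lay at 76.1 to 143 units (median 93.8) in floxed GMPs and 3377 and 3739 units in Hoxb8 cells (log2FC -5.18). Ccr1, a chemokine receptor of myeloid cells, lay at 5.77 to 114 units (median 12.6) in floxed GMPs and 620.2 and 790.1 units in Hoxb8 cells (log2FC -5.32). S1pr3, a sphingosine phosphate receptor, was higher (log2FC 2.53). Of 20 genes of haem synthesis and iron 11 were higher (55%) and 4 lower (20%), while the summed level ran the other way, at 10219 to 14748 units in floxed GMPs and 29509 and 34796 units in Hoxb8 cells. Cpox, a late enzyme of haem synthesis, lay at 38.1 to 168 units (median 66.4) in floxed GMPs and 2.37 and 0.83 units in Hoxb8 cells (log2FC 4.81), and Hmox1, which degrades haem, lay at 3.38 to 48.3 units (median 11.7) in floxed GMPs and 91.7 and 104 units in Hoxb8 cells (log2FC -2.83). Of 51 interferon response genes 16 were higher (31.4%) and 8 lower (15.7%), and with all 6 Hoxb8 libraries as 1 group 27 were higher. Gbp3, a guanylate-binding protein, was higher (log2FC 6.56), and Ifitm6 was lower (log2FC -5.77). Fatty acid genes gave 6 higher (28.6%) and 5 lower (23.8%) of 21, near the background, with the desaturase Scd1 higher (log2FC 5.17) and the acyl-CoA synthetase Acsl1 lower (log2FC -2.66). Of 21 hypoxia genes 1 was higher (4.76%) and 8 were lower (38.1%), and 5 were lower without either Hoxb8 DMSO library. Of 14 stromal and endothelial genes 5 were higher (35.7%) and 3 lower (21.4%).

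Some of the widest single differences lay outside the neutrophil and erythroid lists. Saa3, serum amyloid A3, lay at 0 to 2.43 units (median 0) in floxed GMPs and 1727 and 2229 units in Hoxb8 cells (log2FC -10.35). Olfml2b lay at 0 to 1.88 units (median 1.14) in floxed GMPs and 1238 and 1154 units in Hoxb8 cells (log2FC -9.38). Apoc2, an apolipoprotein that activates lipoprotein lipase, lay at 0 to 1.88 units (median 0) in floxed GMPs and 604 and 748 units in Hoxb8 cells. All 3 were at or near 0 in the sorted cells. Eng, the TGF-beta co-receptor endoglin, lay at 174 to 411 units (median 245) in floxed GMPs and was listed at 0 in both Hoxb8 libraries. Sphk1, a sphingosine kinase, lay at 129 to 387 units (median 165) in floxed GMPs and was listed at 0 in both Hoxb8 libraries. Smpdl3a lay at 186 to 311 units (median 299) in floxed GMPs and 1.58 and 0 units in Hoxb8 cells (log2FC 7.41).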
